A study of Phaseolus vulgaris with 4 samples.

Results

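The genes described here are abundant in the suspensor, and much lower in the embryo proper, of common bean embryos at the globular stage. They were chosen on the measured values. A member had at least 50 RPKM in both suspensor libraries, and its lower suspensor value was at least 8 times its higher embryo proper value. RPKM is the read count of a gene scaled by its length and by the total reads of the library, so levels can be compared between genes. The rule found 135 of the 20961 genes listed in at least 1 library (0.644%), and 8.57% of the 1576 genes with 50 RPKM or more in both suspensor libraries. Because the rule used all 4 libraries, the difference between the regions is given below as a description and was not tested.

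The libraries came from Phaseolus vulgaris plants of the cultivar G19833, with 2 labelled biological replicates for each of 2 embryo regions, the embryo proper and the suspensor. Both groups share the same treatment: seeds of 1.6 to 2.0 mm with globular embryos were taken 6 days after pollination, and each region was cut by laser from 6 micron paraffin sections. A growth temperature of 22 C and 10 PCR cycles were also shared by all libraries. For each library 5 ng of total RNA was amplified before sequencing, and the number of embryos or plants pooled per library is not given in the labels. The recovered read totals were between 55135334 and 73408617 per library.

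The suspensor is the stalk that anchors the embryo proper to the maternal seed tissue, carries nutrients to it and degenerates later in seed development. In Phaseolus it is large, its basal cells contain giant polytene chromosomes, and it is a known source of gibberellins, hormones that promote growth. The files give only gene IDs, and 0 of the 20961 listed IDs, members included, matched the RefSeq table of 34165 common bean genes used here. No name, function or sequence is therefore given to any gene, and the captured tissue could not be checked against marker genes. In a captured region, more RNA of a gene per cell and more cells that express it cannot be told apart.

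The most abundant members had values far above the rest of the set. Phvul.010G087500 on chromosome 10 had 27515 and 36084 RPKM in suspensor replicates 1 and 2, and 339 and 606 RPKM in embryo proper replicates 1 and 2. Phvul.005G018000 on chromosome 5 had 15574 and 38703 RPKM in suspensor, and 747 and 602 RPKM in embryo proper. Phvul.006G123500 on chromosome 6 had 30930 and 18495 RPKM in suspensor, and 780 and 1084 RPKM in embryo proper. These 3 genes took ranks 1, 2 and 4 among all genes in each suspensor library, in a different order in each. They were also the only members above 10000 RPKM on average. In embryo proper they ranked between 63 and 323, so they remained among the abundant genes there.

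After a gap in level, Phvul.001G029200 on chromosome 1 had 6898 and 6051 RPKM in suspensor and 36.1 and 42.5 RPKM in embryo proper. It ranked 6 and 8 in the suspensor libraries and 2728 and 2452 in the embryo proper libraries. Its lower suspensor value was 142-fold its higher embryo proper value, compared with 45.4-fold, 20.9-fold and 17.1-fold for the 3 genes above it. Phvul.009G097100 followed with 4307 and 3207 RPKM in suspensor and 35.3 and 39.4 RPKM in embryo proper. Phvul.005G183600, at 4513 and 2776 RPKM in suspensor, was higher in embryo proper at 127 and 199 RPKM. Members of similar abundance in suspensor thus differed by several-fold in embryo proper.

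The remaining members among the 12 most abundant include the neighbouring genes Phvul.009G024600 and Phvul.009G024700, described with the other pairs. Phvul.005G081500 on chromosome 5 had 2609 and 2310 RPKM in suspensor and 69.2 and 120 RPKM in embryo proper. Phvul.005G017900 on chromosome 5 had 1851 and 1314 RPKM in suspensor and 8.84 and 13.3 RPKM in embryo proper, which is 99.1-fold between the nearest values. Both suspensor values lay above both embryo proper values in every member, as the rule requires. Of all 1576 genes with 50 RPKM or more in both suspensor libraries, 52.4% did not show this. The other 2 of the 12 are given with the genes of large fold and with those whose replicates differ.

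On average over the suspensor replicates, 8 members reached 3000 RPKM, 20 reached 1000 RPKM and 88 reached 100 RPKM. The median member had 143 RPKM, and the lowest had 51.7 RPKM. In the plot of levels by library, the suspensor values fall steeply over the most abundant members and then flatten towards the minimum of the rule.

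**Figure D1:**
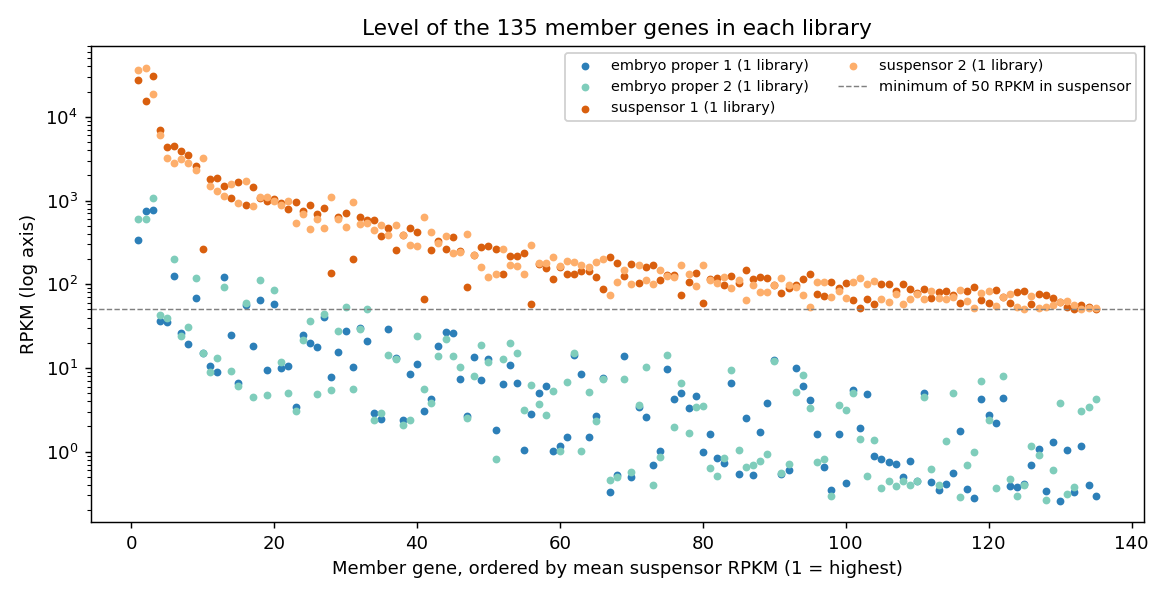
RPKM of each of the 135 member genes (log axis) in the 4 libraries, with genes ordered by mean suspensor RPKM and 1 point per library. The 3 most abundant members exceed 10000 RPKM in both suspensor libraries, and the embryo proper values run from 0.260 to 1084 RPKM.

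In suspensor the 135 members held 20.5% of all RPKM summed over genes in replicate 1 and 22.0% in replicate 2 (mean 21.3% ± 1.06, SD, n = 2). In embryo proper they made up 0.457% and 0.587% (0.522% ± 0.0918, SD, n = 2). The 3 most abundant members alone made up 11.1% and 13.5% in suspensor, and the other 132 made up 9.40% and 8.58%. More than the sum of the other 132 members therefore came from 3 genes in each suspensor library. Of the 10 highest genes, 5 were members in suspensor replicate 1 and 4 in replicate 2, and of the 100 highest genes 29 and 26 were. Among the 100 highest genes of embryo proper, 0 were members in replicate 1 and 1 in replicate 2. The same rule with the regions exchanged gave 107 genes, which held 7.07% ± 1.71 (SD, n = 2) of the embryo proper's summed RPKM. With 2 libraries per region, an exact permutation test cannot give a two-sided p below 0.333, and none was run on these chosen sets.

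**Figure D2:**
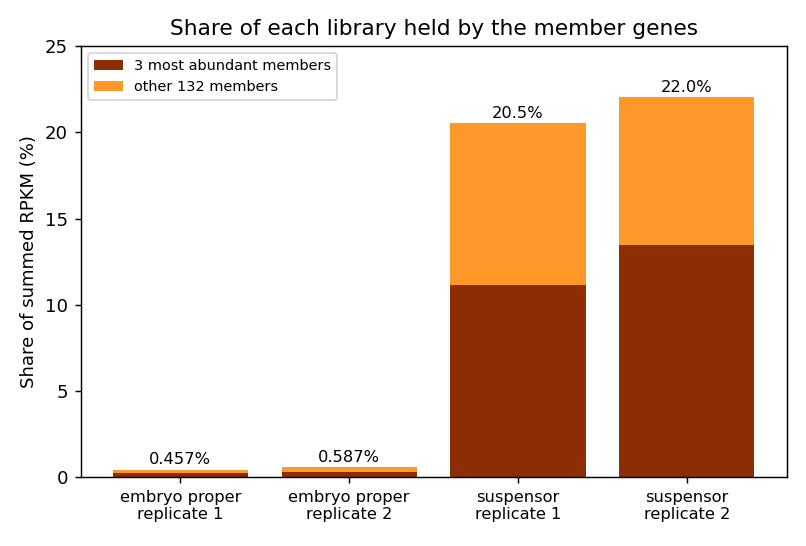
Share of the summed RPKM of each library (%) held by the 3 most abundant members (dark) and the other 132 members (light), with the sum printed above each bar. The bars reach 20.5% and 22.0% in suspensor and stay below 1% in embryo proper.

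The lower suspensor value exceeded the higher embryo proper value by a median of 28.0-fold, with quartiles of 13.3-fold and 90.5-fold and a range from 8.01-fold to 205-fold. The members spread over this range with no single typical fold. Between 8-fold and 16-fold lay 40 members, between 16-fold and 32-fold 30, between 32-fold and 64-fold 21, between 64-fold and 128-fold 23, and at 128-fold or more 21. Of the other genes with 50 RPKM or more in both suspensor libraries, 96 lay between 4-fold and 8-fold and 177 between 2-fold and 4-fold. On the log2(RPKM + 1) scale the median difference, suspensor minus embryo proper, was 5.17 for the members and 0.00 over all 15169 genes tested. All 135 members reached the filter on low values in the suspensor libraries alone, and all 135 were called higher in suspensor (limma, adjusted p under 0.05), against 4.49% of tested genes. With limma-voom on recovered reads 128 members were called, against 2.62% of tested genes. The limma calls did not hold with either suspensor replicate left out. The median log2 difference of the members was 5.28 without suspensor replicate 1 and 5.04 without replicate 2. The rule used the same contrast, so nothing is read from these counts and differences.

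Large folds occurred at all levels. Of the 34 members with a mean of 500 RPKM or more in suspensor, 12 reached 64-fold, as did 14 of the 54 between 100 and 500 RPKM and 18 of the 47 below 100 RPKM. The largest fold belonged to Phvul.008G042400 on chromosome 8, with 108 and 71.1 RPKM in suspensor and 0.346 and 0.297 RPKM in embryo proper. Next was Phvul.011G185900 on chromosome 11, with 181 and 105 RPKM in suspensor and 0.525 and 0.498 RPKM in embryo proper, a 200.4-fold difference between the nearest values. Phvul.001G129100 on chromosome 1 had 173 and 99.9 RPKM in suspensor and 0.498 and 0.572 RPKM in embryo proper. All 3 genes were at or below the median level of the set. Phvul.002G100400, with 81.4 and 68.0 RPKM in suspensor and 0.349 and 0.395 RPKM in embryo proper, was 172-fold apart. Phvul.001G244000 had 77.8 and 76.2 RPKM in suspensor and 0.443 and 0.449 RPKM in embryo proper, and Phvul.001G078200 had 73.9 and 52.9 RPKM in suspensor and 0.334 and 0.268 RPKM in embryo proper. In each of these genes both embryo proper values were below 1 RPKM. Phvul.006G049700 on chromosome 6 was higher in both regions, with 383 and 389 RPKM in suspensor and 2.39 and 2.06 RPKM in embryo proper. At higher level, Phvul.006G138900 on chromosome 6 reached 144-fold, with 1798 and 1500 RPKM in suspensor and 10.4 and 8.89 RPKM in embryo proper.

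The genes nearest the thresholds are given on both sides of each. Phvul.001G019800, the member nearest the fold limit, had 98.7 and 98.6 RPKM in suspensor and 12.3 and 12.1 RPKM in embryo proper, which is 8.01-fold. Phvul.002G048800 and Phvul.008G148700 followed, both at 8.63-fold. Phvul.003G044300, just outside at 7.86-fold, had 942 and 325 RPKM in suspensor and 41.4 and 36.9 RPKM in embryo proper. At the level limit, Phvul.003G213700 was inside with 56.7 and 50.3 RPKM in suspensor, and Phvul.004G122000 was outside with 49.8 and 70.9 RPKM. A further 735 genes met the 8-fold difference below 50 RPKM.

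Every member had reads in both embryo proper libraries, with at least 6 recovered reads in replicate 1 and 7 in replicate 2. In both embryo proper libraries 26 members were below 1 RPKM, 86 were at 1 RPKM or more, and 32 were at 10 RPKM or more. Only 4 members reached 100 RPKM in both, namely the 3 most abundant genes and Phvul.005G183600. Relative to suspensor replicate 2, many members of large fold had embryo proper levels close to the lowest share found. In embryo proper replicate 1 the lowest share was 0.420%, and 28 members lay within 1.5 times of it. In replicate 2 the lowest share was 0.333%, with 10 members within 1.5 times. In both replicates 37 members were below 1% of the level in suspensor replicate 2, with suspensor means from 54.0 to 6475 RPKM. Their median shares were 0.613% and 0.589%, which the cut at 1% and the lowest shares confine to a narrow range. Of the 44 members at 64-fold or more, 33 were among these 37. This overlap follows largely from the measures, because a large fold is itself a low share in embryo proper. Relative to suspensor replicate 1 the lowest shares were 0.153% and 0.214%, and 1 and 7 members lay within 1.5 times of them. Whether the cells of the embryo proper made the RNA counted there was not tested.

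**Figure D3:**
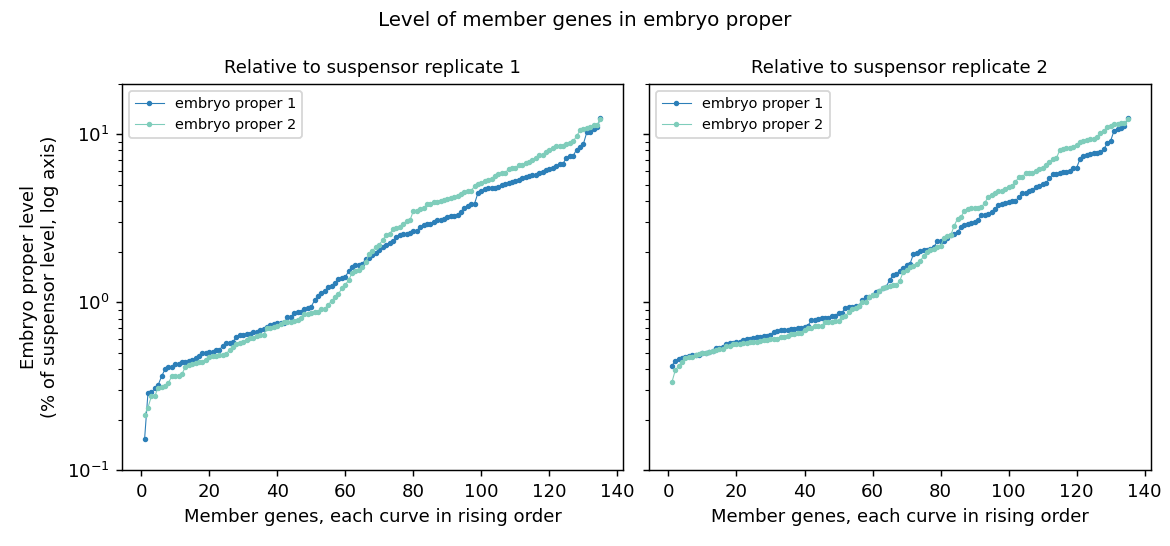
Level of the 135 members in each embryo proper library as a percentage of suspensor replicate 1 (left) or suspensor replicate 2 (right), on a log axis, each curve in rising order with 1 point per gene. Relative to suspensor replicate 2 the curves start at 0.420% and 0.333% and stay below 1% for 56 and 57 members.

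The suspensor replicates differed by a median of 1.39-fold in either direction over the members and by 1.30-fold over the other 1441 genes with 50 RPKM or more in both. Replicate 1 was higher for 80 members and replicate 2 for 55, beside 715 and 726 of the other genes. A difference of more than 2-fold was seen in 15 members (11.1%), against 9.72% of the other genes, and a difference of more than 4-fold in 6 members (4.44%), against 1.46%. In all 6 replicate 2 was higher, as it was in 15 of the 21 other genes more than 4-fold apart. The agreement between replicates was closest for Phvul.001G019800, the gene at the fold limit, with 98.7 and 98.6 RPKM in suspensor. Phvul.003G047000 was 1.01-fold apart, with 162 and 163 RPKM in suspensor and 1.18 and 1.03 RPKM in embryo proper.

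**Figure D4:**
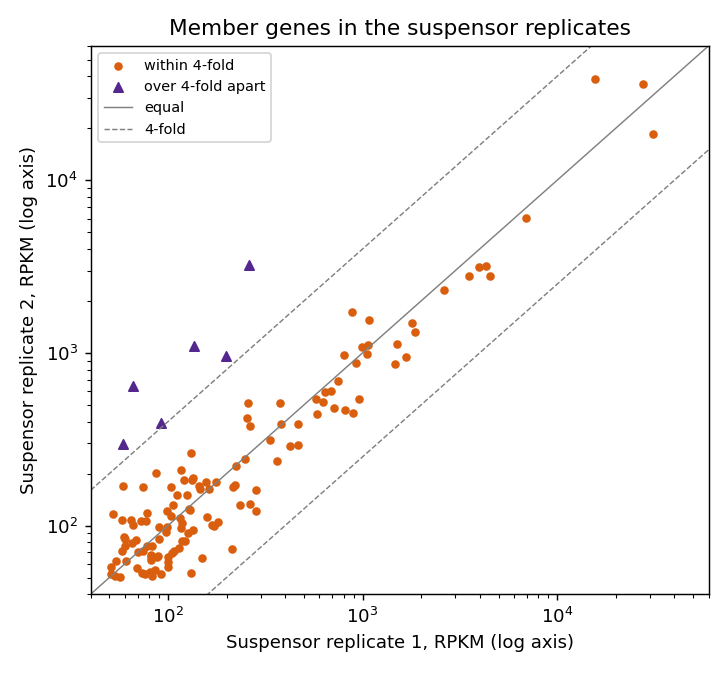
RPKM of the 135 members in suspensor replicate 1 (x) and replicate 2 (y), both on log axes, with lines at equal level and at 4-fold. The 6 members more than 4-fold apart (triangles) all lie above the upper line.

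The largest difference between suspensor replicates was in Phvul.004G098300 on chromosome 4, with 262 RPKM in replicate 1 and 3220 RPKM in replicate 2, a 12.3-fold difference. Its embryo proper values were 15.1 RPKM in each replicate. Phvul.009G211000 on chromosome 9 had 65.9 and 639 RPKM in suspensor and 3.09 and 5.61 RPKM in embryo proper. Phvul.007G002400 on chromosome 7 had 137 and 1101 RPKM in suspensor and 7.73 and 5.39 RPKM in embryo proper. In each of these 3 genes suspensor replicate 2 stood far above the other libraries. Suspensor replicate 1 was above both embryo proper libraries, as the rule requires. Phvul.009G067000 on chromosome 9 had 58.6 and 298 RPKM in suspensor and 2.82 and 6.34 RPKM in embryo proper. Phvul.007G078600, with 198 and 957 RPKM in suspensor, had 10.3 and 5.53 RPKM in embryo proper. Phvul.003G023700, with 91.7 and 394 RPKM in suspensor, had 2.69 and 2.54 RPKM in embryo proper. In each of the 6 genes the embryo proper replicates were less far apart, by up to 2.25-fold in Phvul.009G067000, against at least 4.29-fold in suspensor. The 6 genes were picked for their difference in suspensor, so a smaller one in embryo proper follows largely from that choice. Over all members the embryo proper replicates differed more, by a median of 1.59-fold against 1.39-fold in suspensor. For the 6 genes the embryo proper level was between 2.77% and 10.8% of suspensor replicate 1, and between 0.468% and 2.13% of replicate 2. Without these 6 genes the set has 129 members. Phvul.007G019700 on chromosome 7 was 2.92-fold higher in suspensor replicate 1, with 214 and 73.4 RPKM in suspensor, and 0.327 and 0.457 RPKM in embryo proper, or 0.153% and 0.214% of replicate 1 and 0.445% and 0.623% of replicate 2.

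The members differed more between the embryo proper replicates, by a median of 1.59-fold, against 1.45-fold for the other 1441 genes. More than 4-fold apart were 14 members (10.4%), against 78 of the other genes (5.41%), with replicate 2 higher in 8 members and replicate 1 higher in 6. The sets were not matched for level in embryo proper. The median member had 3.81 and 3.84 RPKM there, while 826 of the other genes had a higher embryo proper value above their lower suspensor value. How far level accounts for the wider spread was not tested. Phvul.002G168200 on chromosome 2 had 0.260 and 3.86 RPKM in embryo proper, although its suspensor values of 61.0 and 62.1 RPKM were close. Phvul.008G262100 on chromosome 8 was alike, with 0.293 and 4.23 RPKM in embryo proper and 51.2 and 52.1 RPKM in suspensor. In the other direction, Phvul.006G169900 on chromosome 6 had 8.50 and 1.01 RPKM in embryo proper and 144 and 169 RPKM in suspensor. These 3 genes were named after their values were seen. For such members the fold is set by 1 embryo proper library.

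The choice was also made in 1 library of each region and read in the other. The limits themselves were set with earlier results of all 4 libraries known. Every member meets them in both readings by definition, so the counts give no independent support for the members. Genes were chosen in replicate 1 of both regions (50 RPKM or more in suspensor and at least 8 times embryo proper) and read in replicate 2. Of the 289 genes so chosen, 152 (52.6%) met the same limits in replicate 2, against 10.0% of the 2103 genes with 50 RPKM or more in suspensor replicate 1, which include the chosen genes. Higher in suspensor in replicate 2 were 279 of the 289 (96.5%), against 58.2%, and their median log2(RPKM + 1) difference there was 3.52, against 0.32. In the reverse direction 330 genes were chosen in replicate 2, and the 152 were 46.1% of them, against 10.6% of the 2044 genes with 50 RPKM or more in suspensor replicate 2. In replicate 1, 302 of the 330 (91.5%) were higher in suspensor, against 57.9%, and 28 were not. About as many of the genes chosen in a single pair of libraries missed the limits in the other pair as met them. All 135 members are among the 152 by definition, so these shares are not a result about the members.

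Members were found on all 11 chromosomes, as the IDs give them, with 1 more on an unplaced scaffold. Chromosome 6 held 19 of 1290 tested genes (1.47%) and chromosome 10 held 4 of 831 (0.481%), against 0.886% over all chromosomes. These shares were not tested. Members lay directly next to each other among tested genes, in ID order, in 6 pairs, which hold 12 of the 134 members on chromosomes. In 5 of the 6 pairs the genes were also next to each other among all genes listed.

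**Figure D5:**
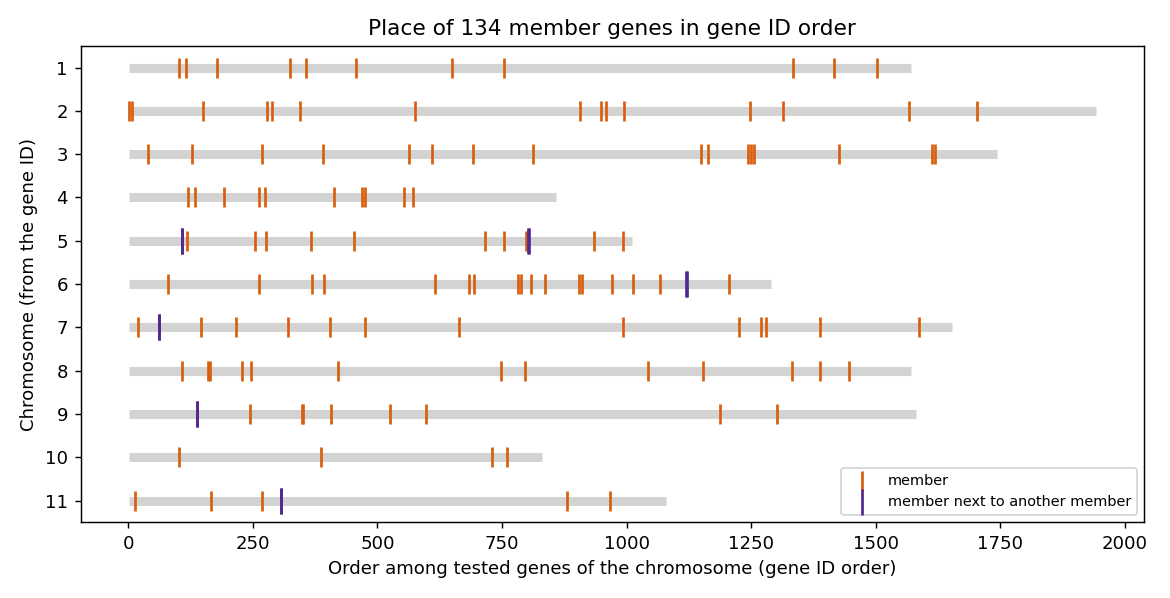
Place of 134 members (ticks) among the tested genes of each chromosome (grey bars), in gene ID order. The 12 members that lie next to another member (long ticks) form 6 pairs, on chromosomes 5, 6, 7, 9 and 11.

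The pairs differed in how closely their members matched. Phvul.009G024600 and Phvul.009G024700 on chromosome 9 were both among the 8 most abundant members, with 3950 and 3151 RPKM for the former in suspensor replicates 1 and 2 and 3520 and 2774 RPKM for the latter. In embryo proper the former had 26.2 and 24.2 RPKM and the latter 19.3 and 30.7 RPKM. Their recovered lengths differ, at 595 and 1433 bp. In Phvul.007G007500 and Phvul.007G007600 on chromosome 7, with recovered lengths of 423 and 399 bp, the former was 1.94-fold and 2.13-fold higher in suspensor replicates 1 and 2. In embryo proper it had 19 recovered reads against 8 in replicate 1 and 26 against 11 in replicate 2, too few to compare the ratios there. Phvul.005G150900 and Phvul.005G151000 on chromosome 5 had 146 and 134 RPKM in suspensor replicate 1 and 162 and 188 RPKM in replicate 2. Both were higher in embryo proper replicate 2, at 5.22 and 6.82 RPKM, by 3.48-fold and 4.51-fold over replicate 1.

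Other pairs held genes of unequal level. Phvul.005G017900, with 1851 and 1314 RPKM in suspensor, lies next to Phvul.005G018000, and the latter was 8.41-fold higher in suspensor replicate 1 and 29.5-fold higher in replicate 2. Their recovered lengths of 340 and 323 bp are alike. Phvul.006G197100, with 1670 and 941 RPKM in suspensor, was 6.32-fold and 7.05-fold above Phvul.006G197500 there. Phvul.011G047900 was 3.75-fold and 2.58-fold above Phvul.011G047800 in suspensor. How reads that match several genes were assigned is not given in the sources used here. The values of any genes that share sequence are therefore uncertain, and whether the genes of these pairs do so was not tested.

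Neighbours of members had a median log2(RPKM + 1) difference of 0.38, suspensor minus embryo proper, beside 0.00 over all tested genes, and this was not tested. Of the 255 tested genes directly next to a member that were not members themselves, 15 (5.88%) were called higher in suspensor, beside 4.49% of all tested genes. Another 10 (3.92%) were called higher in embryo proper, beside 5.55%. With limma-voom the neighbours called were 8 (3.14%) and 5 (1.96%), beside 2.62% and 2.83% of tested genes.

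Members were shorter than tested genes at the median, and about as long as other abundant genes. The median recovered length was 1275 bp for the members, 1614 bp for the tested genes and 1223 bp for the other 1441 genes with 50 RPKM or more in both suspensor libraries. Under 1000 bp were 34.1% of members, 35.3% of the other abundant genes and 20.4% of the tested genes. Among the 12 most abundant members the lengths ran from 323 bp for Phvul.005G018000 to 2118 bp for Phvul.005G183600. The lengths were recovered from the values and are lower bounds.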

How the data were processed

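RNA-seq libraries of 2 embryo regions with 2 replicates each were analysed. Values are RPKM, as the authors deposited them, in 1 table per library that lists only genes above 0; a gene missing from a table was set to 0. The submitters' processing notes list Bowtie 0.12.7 and bedtools without their roles. Genome build, annotation, strand use and the counting of multiply matching reads: not given in the sources used here.

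Library totals, gene lengths and reads were recovered from the steps of the RPKM values (lengths from 30 to 20000 bp, whole reads within 1e-05 or the file's rounding), with a solution for 100% of 20961 genes. Reads of listed genes summed to between 97.5% and 98.2% of the totals, and 3 reads in a gene of 1 kb are at most 0.0544 RPKM, a limit for counting error only.

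Regions were compared by limma 3.58.1 in R 4.3.3, using log2 values of RPKM plus a pseudocount of 1, which understates changes of low genes, and a trend of variance on level. The 15169 genes at 1 RPKM or more in 2 or more libraries entered, with Benjamini-Hochberg adjustment over all. Nothing ties libraries to separate plants, so the test covers only the spread between these libraries. Recovery and fit were tested on simulated data; other tables used Python 3.11.15 and pandas 2.3.3.

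Members, lists and tests were chosen with earlier results of these data known. Named genes are the 12 most abundant members, the 8 of largest fold, those nearest the thresholds, those whose suspensor replicates differ most or least, and neighbouring members; most are printed, and genes outside this rule are said to be so. Lists by product name gave no counts, because no ID was paired with a name. Alternatives were other thresholds, pseudocounts, filters and scalings, a replicate block, limma-voom on recovered reads and leaving out each library. Neighbours of members, the 6 members over 4-fold apart and shares relative to each suspensor library were examined after the data were seen.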

Additional observations from a re-analysis of the deposited data

How the results depend on the processing

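The set of 135 genes became 74 with a minimum of 100 RPKM, 231 with 4-fold and 257 with region means in place of the lower and higher values, and between 186 and 236 with 1 library left out. Median-ratio factors gave 133 genes, 120 of them shared with the 135. The 21.3% share of the summed RPKM in suspensor was 18.4% of recovered reads, 16.6% without the most abundant member and 8.99% without the 3 most abundant. On the log2 scale the median difference of 5.17 became 5.86 for a pseudocount of 0.1 and 3.96 for 5, and limma-voom gave 5.92. All 135 members were called by limma, beside 681 of the 15169 tested genes called higher in suspensor. With the replicate block 135 members were called, beside 867 tested genes, and with limma-voom 128, beside 397. The members were chosen on this contrast, so nothing is read from these counts. The limma calls did not hold with either suspensor replicate left out, where the lone library is assumed to vary like the other region. With no filter on low values, 0 members and 0 genes of the whole table were called. In that fit all 135 members had an unadjusted limma p under 0.05, beside 1989 of all 20961 genes that were higher in suspensor. The cause of these losses was not tested. Deviations from the region means correlated at 0.07 across genes between libraries of the same number, so the numbers are not taken as pairs. The 152 genes that met the limits in both replicates were 153 with crossed numbers, 81 at 100 RPKM, 269 at 4-fold and 101 at 16-fold. Pairs of members rose from 6 to 11 within 5 tested genes. Neighbours called higher in suspensor were 15 of 255 (5.88%), and 25 of 507 (4.93%) within 2 tested genes, beside 4.49% of all tested genes. With limma-voom they were 8 of 255 (3.14%), beside 2.62%. The lowest embryo proper shares of 0.420% and 0.333% became 0.153% and 0.214% against suspensor replicate 1; the cause was not tested. The log2 difference of the 39 genes of the naming rule was read under alternatives that keep all 4 libraries. It changed sign in 0 cases, which the 8-fold rule all but ensures for these members. Of the values of the log2 difference, 164 moved by less than 1 SD between replicates and 70 moved further. With 2 libraries per region, leaving 1 out cannot move such a value by 1 SD, so it says nothing about stability.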

Other observations

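The 132 members other than the 3 most abundant held nearly the same share of recovered reads in both suspensor libraries, 7.76% in replicate 1 and 7.76% in replicate 2, although their share of the summed RPKM was 9.40% and 8.58%. The 3 most abundant members held 10.6% and 10.7% of recovered reads. Of the summed RPKM, a different measure, the 3 genes held 11.1% and 13.5%. Phvul.005G018000 held 2.34% and 5.58% of it in suspensor replicates 1 and 2, Phvul.010G087500 held 4.14% and 5.21%, and Phvul.006G123500 held 4.65% and 2.67%. This was noticed in the data and has no test.

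The 107 genes of the exchanged rule showed another pattern in the suspensor libraries than the members showed in embryo proper. In suspensor replicate 1, 27 of the 107 had 0 reads, and 0 had 0 reads in replicate 2, where the lowest level was 0.850% of their embryo proper mean. Of the 135 members, 0 had 0 reads in either embryo proper library. The difference was not tested.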
